A study of Mus musculus with 6 samples.

Results

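The homeostatic lymphoid chemokines and their receptors are represented here by 8 genes, the ligands Ccl19, Ccl21a, Cxcl13 and Cxcl12 and the receptors Ccr7, Cxcr5, Cxcr4 and Ackr3. The rule named them by gene symbol and set a mean normalized count of at least 1. It used no difference between the groups, although earlier results of these data were known when it was written. All 8 met that limit, out of 26012 genes in the expression table. The hearts came from male C57BL/6 mice, 8 weeks of age, with no transgene or deletion named in the labels. In every mouse the left anterior descending coronary artery was ligated to produce myocardial infarction (MI), and 10 μg of mimic was injected into the heart. Such a mimic is a short double-stranded RNA, made by synthesis, whose guide strand has the sequence of the mature miRNA. One group of 3 mice received control mimic and the other group of 3 received miR-19a/19b mimic. Ventricular tissue was taken on day 4 after MI and its polyadenylated RNA was sequenced, 1 library per heart. All 6 hearts carried both the infarct and an injection, so no comparison with an uninjured or uninjected heart was made.

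CCL19 and CCL21 are the ligands of CCR7, the receptor that brings naive T cells and mature dendritic cells into lymph nodes, and CCL21 is also made by lymphatic vessels in peripheral tissue. CXCL13 is the ligand of CXCR5, which places B cells in follicles. CXCL12 is made by stromal and endothelial cells and acts through CXCR4 on leukocytes, progenitors and endothelium, while ACKR3 binds the same ligand and removes it without activating G proteins. In the infarcted heart the CXCL12 and CXCR4 pair is best known for the recruitment of bone marrow cells.

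The libraries held between 19398196 and 23645308 reads on genes. Replicates differed by more than sampling noise in both groups, with a chi-square per degree of freedom of 9.49 to 24.4 for the pairs that did not include miR-19a/19b mimic replicate 3 and of 110 and 123 for the 2 pairs that did. That heart also held the lowest summed level of 8 cardiomyocyte markers, 203718 normalized counts, where the other hearts held between 331076 and 629972. In miR-19a/19b mimic replicate 1, the summed level of 8 skeletal muscle markers was 1962 normalized counts, against 23.2 to 46.7 in the other hearts. Values without one of these hearts are given where they moved a result of the 8 genes. In bulk tissue, fewer cells of a type and less RNA per cell cannot be told apart.

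The injected miRNAs share 1 seed, the stretch at bases 2 to 8 that pairs with target transcripts, and are shown because the complement of this seed is the most usual form of a miRNA target site. The sequences are from RefSeq on GRCm38.p6, with the seed in capitals. Both are written 5′ to 3′ and have a copy on the plus strand of chromosome 14, at chr14:115044048-115044070 for miR-19a-3p and chr14:115044358-115044380 for miR-19b-3p.
mmu-miR-19a-3p: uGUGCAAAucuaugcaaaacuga
mmu-miR-19b-3p: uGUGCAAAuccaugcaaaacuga
The 2 miRNAs are each 23 bases long and 22 of these are identical. They differ by U11C, counted from the 5′ end with the miR-19a base first.

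Matches to the seed in the 3′ UTRs of the 8 genes were looked for as the 8-mer TTTGCACA and as the 7-mers TTTGCAC and TTGCACA, on the sense strand of the longest annotated 3′ UTR (GENCODE M21, GRCm38), with a 7-mer inside an 8-mer counted once. Only Cxcl13 and Cxcl12 held a match. The 3 sites are shown with 8 flanking bases on each side and the match in capitals.
Cxcl13, first site: tcagttatTTTGCACccttgtaa
Cxcl13, second site: tatattccTTTGCACtgtgaccc
Cxcl12: ggacttgcTTTGCACAgttttgct
The Cxcl13 sites are 7-mers at chr5:95960688-95960694 and chr5:95960930-95960936 on the plus strand, which are positions 420 and 662 of a 3′ UTR of 800 bases. The Cxcl12 site is an 8-mer at chr6:117178725-117178732 on the plus strand, position 2546 of a 3′ UTR of 5188 bases. It is also present in the transcript Cxcl12-203 and is not present in Cxcl12-202, whose shorter 3′ UTR is 1487 bases. No match was found in the longest 3′ UTR of Ccl19, Ccl21a, Ccr7, Cxcr5, Cxcr4 or Ackr3, which are between 263 and 1842 bases long. Among 15858 tested genes with an annotated 3′ UTR, of median length 1261 bases, 19.3% held at least 1 match and 5.81% held an 8-mer. A match describes the letters of the UTR and is not evidence of binding.

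On a length-scaled scale (RPKM, reads per kilobase of gene, scaled to the reads on genes of each library), Cxcl12 had the highest level in the infarcted ventricle, at 33.6 ± 3.16 (SD over all 6 hearts, as for the other levels in this paragraph). Its receptor Cxcr4 followed at 26.0 ± 6.44, then the CCR7 ligand Ccl21a at 17.5 ± 3.79 and the scavenging receptor Ackr3 at 11.4 ± 3.05. The remaining 4 genes formed a separate lower set. Ccr7 was at 1.57 ± 0.556, Cxcl13 at 0.943 ± 0.652, Cxcr5 at 0.490 ± 0.129 and Ccl19 at 0.438 ± 0.233. In this order, neighbours overlapped in range with 1 exception, the step from Ackr3 (8.89 to 17.0) down to Ccr7 (0.841 to 2.29). The gene length used for Cxcl12 was 8176 bases, where its longest annotated coding transcript has 5627. For Cxcr4 these lengths were 1808 and 1805. The distance of Cxcl12 from Cxcr4 thus depends on the length used, and a transcript length would place Cxcl12 higher. Cxcr4 was below Cxcl12 in 6 of 6 hearts and Ccl21a below Cxcr4 in 5 of 6, whereas Cxcr5 was above Ccl19 in only 3 of 6. These 3 were the miR-19a/19b mimic hearts, and the Ccl19 level rests on 2 to 12 reads per heart. The abundant set thus held the CXCL12 ligand with both of its receptors and the CCR7 ligand Ccl21a, while the receptor Ccr7 itself and the B cell follicle pair were scarce.

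**Figure D1:**
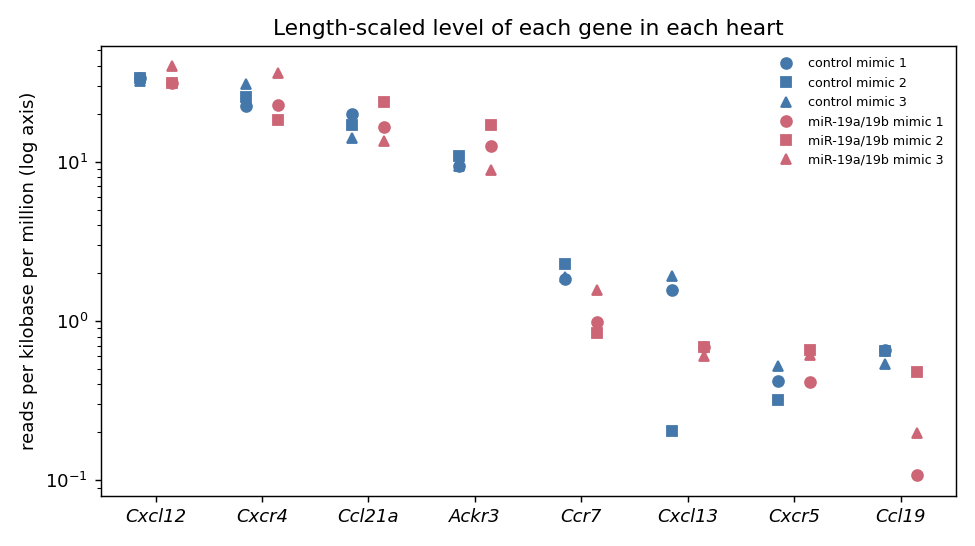
Length-scaled level of the 8 genes in each heart, in RPKM on a log axis, ordered from the highest mean to the lowest. Blue symbols are control mimic hearts and red symbols miR-19a/19b mimic hearts, with 1 shape per replicate number, and a gap separates Ackr3 and the 3 genes above it from Ccr7 and the 3 genes below it.

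The comparison between groups asks which of these genes differed 4 days after MI when miR-19a/19b mimic took the place of control mimic. Ccr7 and its ligand Ccl19 were lower in all 3 miR-19a/19b mimic hearts than in any control mimic heart, and the more abundant CCR7 ligand Ccl21a was not. Cxcl12, Cxcr4, Ackr3, Cxcl13 and Cxcr5 overlapped between groups. No gene of the 8 passed the adjusted threshold of 0.05 in limma on log2(normalized count + 1), and neither did any of the 21126 genes tested (0%), where DESeq2 on the recovered reads called 28 lower and 1 higher and edgeR and limma-voom called 0. At an unadjusted p under 0.05, 2 of the 8 were lower and 0 higher, where 2.63% of all tested genes (555 genes) were lower and 1.39% (293 genes) higher. Groups did not overlap for 2 of the 8 in the lower direction and 0 in the higher, against 5.3% and 3.9% of all tested genes. The median log2 fold change of the 8 was 0.00, as was that of all tested genes. With 3 hearts against 3, the exact permutation test cannot give a two-sided p below 0.1.

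**Figure D2:**
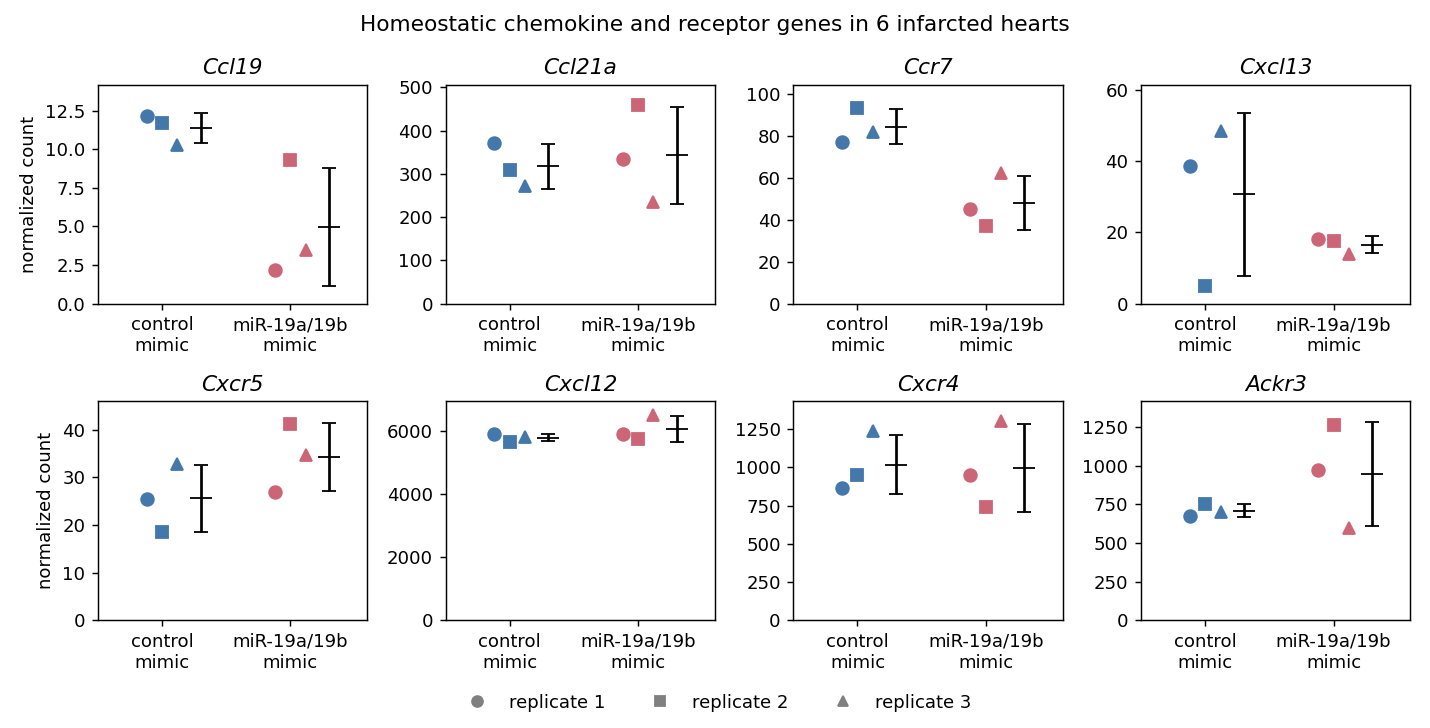
Normalized count of each gene in each heart, on a linear axis that starts at 0 and differs between panels. Blue symbols are the 3 control mimic hearts, red symbols the 3 miR-19a/19b mimic hearts, and the black bar gives each group's mean ± SD. Ccl19 and Ccr7 are the panels in which the groups do not overlap.

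Ccr7 (ENSMUSG00000037944, chr11:99144196-99155077, minus strand) encodes the homing receptor for CCL19 and CCL21. Its normalized counts were 77.4, 93.7 and 82.2 in control mimic replicates 1 to 3 and 45.2, 37.1 and 62.2 in miR-19a/19b mimic replicates 1 to 3. The highest miR-19a/19b mimic heart was thus below the lowest control mimic heart. The means were 84.4 ± 8.38 and 48.2 ± 12.8 (SD, n = 3 each), and the log2 fold change was -0.82 (SE 0.23, 95% interval -1.34 to -0.31), a fold change of 0.565. The unadjusted limma p was 0.00571 and the adjusted p 0.948, and the two-sided exact permutation p was 0.1, the smallest possible. The Ccr7 counts rest on 70, 96 and 88 reads in the control mimic hearts and on 42, 36 and 72 in the miR-19a/19b mimic hearts.

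Ccr7 stayed lower when any single heart was left out, with log2 fold changes between -1.02 and -0.66 and an unadjusted p under 0.05 in all 6 fits. Without miR-19a/19b mimic replicate 3, the heart that stood apart, it passed the adjusted threshold (log2 fold change -1.02, adjusted limma p 0.0355), where the adjusted p of the other alternatives lay between 0.410 and 1.0. This was a fit in which 0.729% of all tested genes were called lower and 1.71% higher. The remaining pair of miR-19a/19b mimic hearts held 45.2 and 37.1 normalized counts, the lowest values of the 6. Ccr7 was the only 1 of the 8 genes called lower in that fit.

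T cells and dendritic cells are the usual carriers of Ccr7, so their markers are given beside it. The summed level of 14 T cell markers was 760, 748 and 622 normalized counts in control mimic replicates 1 to 3 and 396, 478 and 552 in miR-19a/19b mimic replicates 1 to 3. These groups did not overlap either (exact permutation p = 0.1). Of the 14 markers, 13 had a negative log2 fold change, and none was at 0 in every heart. In this list 6 were lower without overlap, against 5.3% of all tested genes. At an unadjusted p under 0.05, 4 were lower, with Lck, Trac and Cd8a among them, against 2.63% of all tested genes. Not every marker of the list is restricted to T cells.

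Per unit of T cell marker signal, Ccr7 stood at ratios of 0.102, 0.125 and 0.132 in control mimic hearts and 0.114, 0.0776 and 0.113 in miR-19a/19b mimic hearts. These ratios overlapped, with a log2 difference of -0.25 and an exact permutation p of 0.4 (0.8 after adjustment over the 8 marker ratios computed, which were chosen after the data were seen). Relative to the summed dendritic cell markers, by contrast, Ccr7 was lower in all 3 miR-19a/19b mimic hearts, with a log2 difference of -0.86 and an exact permutation p of 0.1, or 0.8 after adjustment. The dendritic cell marker sum was 7925, 6962 and 6936 in control mimic hearts and 6450, 6748 and 9191 in miR-19a/19b mimic hearts, and most of it came from Fscn1, which other cells also express. Of its 10 markers, 6 had a lower mean and 4 a higher one. Of all tested genes, 2.63% were lower at an unadjusted p under 0.05 and 5.3% were lower without overlap. Both criteria were met by 3 of the 10 markers. These 3 were Flt3, a growth factor receptor of dendritic cell precursors, with a log2 fold change of -0.54, the chemokine receptor Xcr1 of cross-presenting dendritic cells with -0.97, and the lectin receptor Cd209a with -0.85. Clec9a, which marks the same cells as Xcr1, was at 0.19, Cacnb3 at 0.11, Fscn1 at 0.04 and Zbtb46 at 0.00, none with an unadjusted p under 0.05. The part of either cell type in the Ccr7 difference was not tested.

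**Figure D3:**
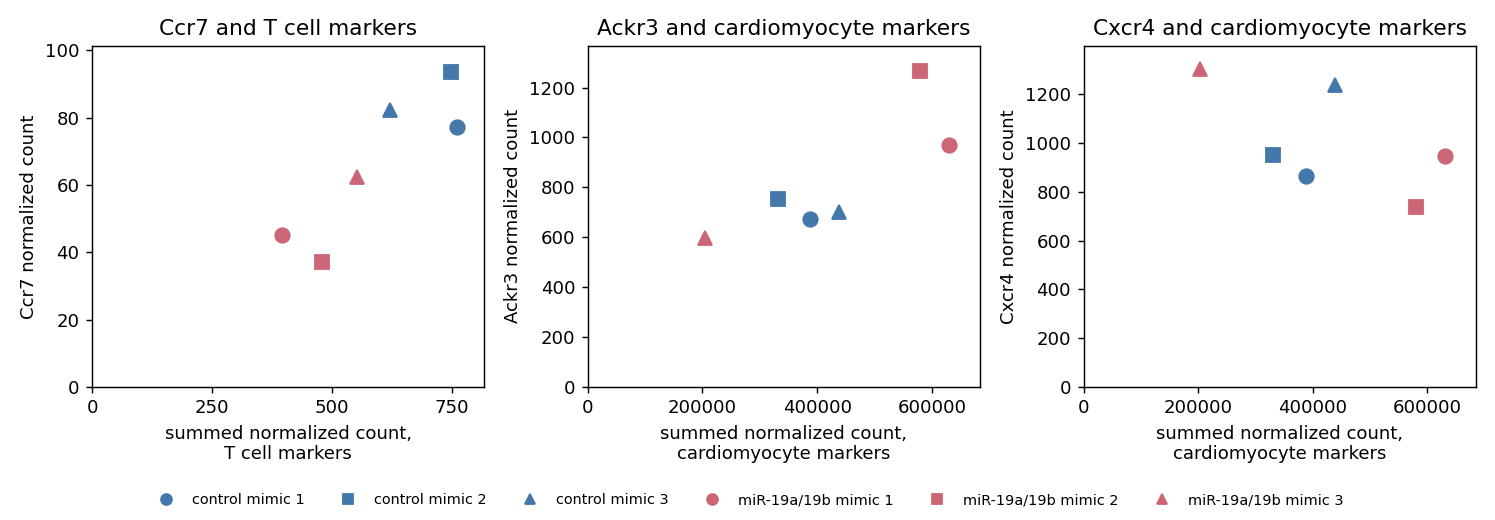
Normalized counts of Ccr7 against the summed T cell markers (left), and of Ackr3 (middle) and Cxcr4 (right) against the summed cardiomyocyte markers, all in normalized counts, 1 point per heart. In the left panel the 3 miR-19a/19b mimic hearts (red) are below and to the left of the 3 control mimic hearts (blue). In the middle and right panels miR-19a/19b mimic replicate 3 (red triangle), at 203718 summed cardiomyocyte counts, is lowest for Ackr3 and highest for Cxcr4.

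Ccl19 (ENSMUSG00000071005, chr4:42754525-42756577, minus strand), the soluble CCR7 ligand made by reticular stroma and mature dendritic cells, was close to the limit of detection. Its normalized counts were 12.2, 11.7 and 10.3 in control mimic replicates 1 to 3 and 2.15, 9.28 and 3.46 in miR-19a/19b mimic replicates 1 to 3. The groups did not overlap, but miR-19a/19b mimic replicate 2 came close to the control mimic hearts. The means were 11.4 ± 0.983 and 4.96 ± 3.79 (SD, n = 3 each), and the log2 fold change was -1.24 (SE 0.49, 95% interval -2.34 to -0.13), with an unadjusted limma p of 0.0319 and an adjusted p of 1.0. The two-sided exact permutation p was 0.1.

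The Ccl19 values rest on 11, 12 and 11 reads in control mimic hearts and on 2, 9 and 4 in miR-19a/19b mimic hearts. The exact Poisson 95% intervals of the 9 reads (4.12 to 17.1) and of the 11 reads (5.49 to 19.7) overlap, and such intervals cover counting error only. The unadjusted p stayed under 0.05 in 1 of the 6 fits that left out a heart and in 6 of the 9 other alternatives. With miR-19a/19b mimic replicate 1 left out, the log2 fold change was -0.87 (unadjusted limma p 0.106). Ccl19 reads are also uncertain in origin. Transcripts of Ccl19-ps1, Ccl19-ps3, Gm12407 and Gm2564 match Ccl19 over 324 to 707 bases at 98.9% identity or more, and the gene lies within 4930578G10Rik on the other strand, which held at most 3.90 normalized counts.

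Ccl21a (ENSMUSG00000094686, chr4:42772860-42773993, minus strand) encodes a form of CCL21, the heparin-binding CCR7 ligand. Its normalized counts were 372, 308 and 271 in control mimic replicates 1 to 3 and 334, 459 and 236 in miR-19a/19b mimic replicates 1 to 3. The highest and the lowest heart both belonged to the miR-19a/19b mimic group. The means were 317 ± 51.3 and 343 ± 112 (SD, n = 3 each), with a log2 fold change of 0.07 (SE 0.23, 95% interval -0.45 to 0.59, unadjusted limma p 0.763). The interval thus extends from a fold change of 0.732 to 1.51, and the sign of the fold change turned when control mimic replicate 3 or miR-19a/19b mimic replicate 2 was left out. The near copy Ccl21b was at 0 in 5 of the 6 hearts and at 1.95 normalized counts in the other, but Ccl21b, Gm10591, Gm13304 and Gm21541 match Ccl21a at 99.3% identity or more, so the split of reads among these genes is uncertain.

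Lymphatic endothelial markers, 8 genes with Prox1, Lyve1 and Flt4 among them, summed to 7062, 5511 and 6359 in control mimic hearts, against 6109, 6190 and 4923 in miR-19a/19b mimic hearts (exact permutation p = 0.4). The most abundant of them, Itga9, held 3070, 2678 and 2869 normalized counts in control mimic hearts and 2632, 2470 and 1762 in miR-19a/19b mimic hearts. Its log2 fold change was -0.35 (unadjusted limma p 0.0523), where Prox1 was at -0.05, Flt4 at -0.13 and Lyve1 at 0.30. Of the 7 tested markers, 5 had a negative and 2 a positive log2 fold change. Ccl21a relative to the marker sum overlapped between groups, with a log2 difference of 0.21 and an exact permutation p of 0.5. The balance of the 2 CCR7 ligands within each heart was also computed. Ccl19 reads amounted to 0.0326, 0.0380 and 0.0379 of Ccl21a reads in control mimic hearts, against 0.00645, 0.0202 and 0.0147 in miR-19a/19b mimic hearts. The ratio was lower in each miR-19a/19b mimic heart, with a log2 difference of -1.54, an exact permutation p of 0.1 and 0.5 after adjustment over the 5 ratios of the 8 genes. This ratio carries the same few Ccl19 reads and the same uncertainty over near copies.

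Cxcl13 (ENSMUSG00000023078, chr5:95956951-95961068, plus strand), the B cell chemoattractant with 2 seed matches in its 3′ UTR, varied more among the control mimic hearts than any other gene of the 8. It held 38.7, 4.88 and 48.6 normalized counts in control mimic replicates 1 to 3 and 18.3, 17.5 and 13.8 in miR-19a/19b mimic replicates 1 to 3. The 3 miR-19a/19b mimic hearts were within a narrow range that lay between the lowest and the other control mimic hearts. The means were 30.7 ± 22.9 and 16.5 ± 2.38 (SD, n = 3 each), and the log2 fold change was -0.38 (SE 0.71, 95% interval -1.98 to 1.23, unadjusted limma p 0.609), so neither a fall to 0.253 of the control level nor a rise to 2.35 of it lay outside the interval.

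The value depended on which control mimic hearts were in the fit, and control mimic replicate 2 held 5 Cxcl13 reads. Without it the log2 fold change was -1.35 (unadjusted limma p 0.00229, adjusted p 1.0), and without control mimic replicate 1 or 3 it was 0.03 or 0.19. Fits on recovered reads put it at -0.89 in both edgeR (unadjusted p 0.182) and DESeq2 (unadjusted p 0.171) and at -0.37 in limma-voom (unadjusted p 0.644). The coefficient of variation was 74.6% in control mimic hearts.

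Cxcr5 (ENSMUSG00000047880, chr9:44511788-44556391, minus strand), the B cell receptor for CXCL13, held 25.4, 18.5 and 32.7 normalized counts in control mimic replicates 1 to 3 and 26.9, 41.2 and 34.6 in miR-19a/19b mimic replicates 1 to 3. Control mimic replicate 3 exceeded miR-19a/19b mimic replicate 1, so the groups overlapped. The means were 25.6 ± 7.08 and 34.2 ± 7.18 (SD, n = 3 each), with a log2 fold change of 0.42 (SE 0.29, 95% interval -0.24 to 1.09, unadjusted limma p 0.184). The direction opposite to that of Ccr7 was kept with each heart left out, between 0.22 and 0.61, without an unadjusted p under 0.05.

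The summed B cell markers, 12 genes with Cd79a and Ms4a1 among them, were 494, 526 and 506 in control mimic hearts and 433, 438 and 571 in miR-19a/19b mimic hearts (exact permutation p = 0.4). Relative to them Cxcr5 overlapped between groups (log2 difference 0.53, exact permutation p = 0.3). By its annotated coordinates Cxcr5 also overlaps Bcl9l on the other strand by 109 bases. Bcl9l held 1345 to 2180 normalized counts, far more than Cxcr5, and the counting is not stated to have used strand, so reads in that stretch cannot be assigned with certainty.

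Cxcl12 (ENSMUSG00000061353, chr6:117168535-117181367, plus strand), the stromal ligand of CXCR4 and ACKR3 and the only gene of the 8 with an 8-mer seed match, was the most evenly expressed. Its normalized counts were 5890, 5663 and 5799 in control mimic replicates 1 to 3 and 5898, 5736 and 6516 in miR-19a/19b mimic replicates 1 to 3. The groups overlapped, and the heart that stood apart gave the highest value. The means were 5784 ± 114 and 6050 ± 412 (SD, n = 3 each), with coefficients of variation of 1.97% and 6.80%. The log2 fold change was 0.06 (SE 0.11, 95% interval -0.18 to 0.31, unadjusted limma p 0.576), which bounds the fold change between 0.881 and 1.24 at the RNA level. Without miR-19a/19b mimic replicate 3 the log2 fold change was 0.01.

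Cxcr4 (ENSMUSG00000045382, chr1:128588199-128592293, minus strand), the signalling receptor for CXCL12, held 865, 952 and 1237 normalized counts in control mimic replicates 1 to 3 and 948, 738 and 1304 in miR-19a/19b mimic replicates 1 to 3. The lowest and the highest value both came from miR-19a/19b mimic hearts. The means were 1018 ± 194 and 997 ± 286 (SD, n = 3 each), with a log2 fold change of -0.05 (SE 0.21, 95% interval -0.53 to 0.42, unadjusted limma p 0.804). The sign turned without control mimic replicate 3 (0.10) and without miR-19a/19b mimic replicate 2 (0.14), and the value without miR-19a/19b mimic replicate 3 was -0.27.

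Ackr3 (ENSMUSG00000044337, chr1:90203980-90216751, plus strand), the scavenging receptor for CXCL12, held 674, 754 and 701 normalized counts in control mimic replicates 1 to 3 and 970, 1268 and 597 in miR-19a/19b mimic replicates 1 to 3. In replicates 1 and 2 of the miR-19a/19b mimic group it was above every control mimic heart, and in replicate 3 it was below every one. The means were 710 ± 40.9 and 945 ± 336 (SD, n = 3 each), with a log2 fold change of 0.35 (SE 0.23, 95% interval -0.18 to 0.88, unadjusted limma p 0.171). Without miR-19a/19b mimic replicate 3 the log2 fold change was 0.65 with an adjusted limma p of 0.0250, and Ackr3 was the only 1 of the 8 genes called higher in that fit, where 1.71% of all tested genes were called higher. In the other alternatives its adjusted p was between 0.987 and 1.0. With miR-19a/19b mimic replicate 2 left out, the log2 fold change was 0.10 (unadjusted limma p 0.624), so both hearts moved the value, in opposite directions.

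Summed cardiomyocyte markers were 387536, 331076 and 438525 in control mimic replicates 1 to 3 and 629972, 579608 and 203718 in miR-19a/19b mimic replicates 1 to 3, so the 2 hearts with the most Ackr3 had the highest sums and the heart with the least Ackr3 had the lowest. Among the control mimic hearts the order differed, with the most Ackr3 in replicate 2, which had the lowest sum of the 3. Relative to these markers Ackr3 overlapped between groups (log2 difference 0.21, exact permutation p = 0.7, and -0.01 without miR-19a/19b mimic replicate 3), as it did relative to 7 endothelial markers (log2 difference 0.32, exact permutation p = 0.5, and 0.62 without that heart). None of the 8 cardiomyocyte markers was at 0 in all hearts, and their part in the Ackr3 values was not tested. Cxcr4 relative to 9 macrophage markers had a log2 difference of 0.04 (exact permutation p = 1.0), and Cxcl12 relative to 7 fibroblast markers of 0.07 (exact permutation p = 1.0).

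**Figure D4:**
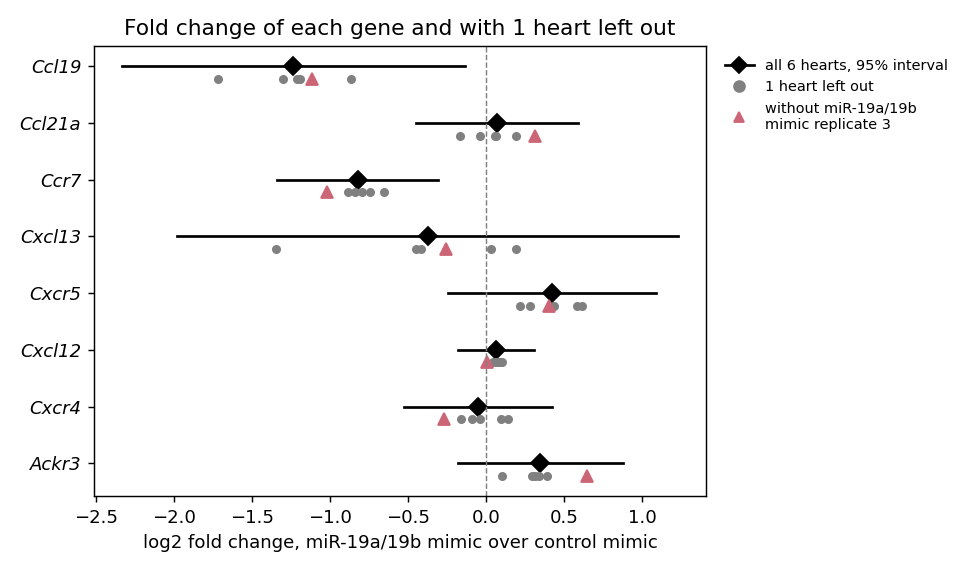
Log2 fold change of each gene, miR-19a/19b mimic over control mimic, with its 95% interval in limma (black diamond and line) and the values with 1 heart left out (grey points, and a red triangle for the fit without miR-19a/19b mimic replicate 3). Ccr7 and Ccl19 stay left of 0 in all fits. For Ccr7 (-1.02), Ackr3 (0.65), Ccl21a (0.31) and Cxcr4 (-0.27) the red triangle is the value farthest from 0 of that gene.

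Within single hearts, the ratios of Cxcl12 to its 2 receptors and of the receptors to each other overlapped between groups. The ratio of Cxcr4 to Ackr3 reads was 1.28, 1.26 and 1.77 in control mimic hearts and 0.977, 0.582 and 2.18 in miR-19a/19b mimic hearts, with a log2 difference of -0.40 (exact permutation p = 0.5, adjusted p = 0.7). These are ratios of reads without length scaling, to be compared between hearts, and on the length-scaled scale Cxcr4 was above Ackr3 in all 6 hearts. Without miR-19a/19b mimic replicate 3 the log2 difference of this ratio was -0.91, and without replicate 2 it was 0.04. The log2 difference was 0.12 for Cxcl12 over Cxcr4 (exact permutation p = 0.7, and 0.28 without replicate 3), -0.29 for Cxcl12 over Ackr3 (exact permutation p = 0.6, and -0.64 without replicate 3) and -0.79 for Cxcl13 over Cxcr5 (exact permutation p = 0.4).

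Whether ligand and receptor varied together was examined in 5 pairs over the 6 hearts, on log2(normalized count + 1), with both genes of a pair read from the same library. For Ccl19 and Ccr7, Pearson's r was 0.51 (exact permutation p = 0.289) and Spearman's rho 0.66 (exact permutation p = 0.175). For Ccl21a and Ccr7 r was -0.53 (exact permutation p = 0.286) and rho -0.49 (exact permutation p = 0.356). For Cxcl12, r was 0.62 with Cxcr4 (exact permutation p = 0.201, rho 0.37, p = 0.497) and -0.53 with Ackr3 (exact permutation p = 0.244, rho -0.54, p = 0.297). For Cxcl13 and Cxcr5 r was 0.46 (exact permutation p = 0.368) and rho 0.09 (exact permutation p = 0.919). No pair passed the threshold, and without the 2 hearts farthest from the median of the ligand, r was 0.80, -0.31, 0.20, -0.53 and -0.65 in the same order, so the sign of the Cxcl13 and Cxcr5 relation turned. The smallest adjusted p over the 5 pairs was 0.361 for r and 0.593 for rho. Each group holds too few hearts for a correlation within it.

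Other genes of the same pathways were described from lists, with 0 genes passing the adjusted threshold in any of them. Of 20 further homeostatic chemokine genes, 17 were tested, and their median log2 fold change was -0.24. Cxcr6, the receptor of CXCL16 on memory T cells and natural killer T cells, was the 1 gene with an unadjusted p under 0.05. By this criterion 2.63% of all tested genes were lower and 1.39% higher. Cxcr6 held 269, 210 and 244 normalized counts in control mimic replicates 1 to 3 and 178, 187 and 119 in miR-19a/19b mimic replicates 1 to 3, without overlap (log2 fold change -0.60, unadjusted limma p 0.0129). Its ligand Cxcl16, the most abundant gene of the list, had a log2 fold change of -0.24 (unadjusted limma p 0.136), and Cxcl14, the next most abundant, -0.06 (unadjusted limma p 0.752).

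The lymphotoxin and lymphoid organizer list, 18 tested genes for lymphotoxin and BAFF signalling, adhesion and vessels of lymphoid tissue, held 0 genes with an unadjusted p under 0.05 and 0 without overlap. Its median log2 fold change was -0.09. The most abundant, the lymphotoxin receptor Ltbr and its effector Nfkb2, were at -0.04 (unadjusted limma p 0.767) and -0.01 (unadjusted limma p 0.965). The lymphoid vessel genes Glycam1 and Madcam1 were at or near 0, with at most 1.03 and 2.06 normalized counts in any heart.

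Among 18 tested partners and regulators of the CXCL12 axis, 2 had an unadjusted p under 0.05 and 5 did not overlap, all of them lower, where 2.63% and 5.3% of all tested genes were lower by these criteria, with a median log2 fold change of -0.09. Cd74, the invariant chain of class II molecules and a receptor of the cytokine MIF, held 5861, 7562 and 5502 normalized counts in control mimic replicates 1 to 3 and 3977, 3733 and 4817 in miR-19a/19b mimic replicates 1 to 3 (log2 fold change -0.59, unadjusted limma p 0.00433). Rgs16, which shortens G protein signalling, held 157, 174 and 174 against 110, 123 and 155 (log2 fold change -0.39, unadjusted limma p 0.0400). The G protein subunit Gnai2, the most abundant of the list, was at 0.08 (unadjusted limma p 0.613).

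Inflammatory chemokines are given for comparison. All 13 tested monocyte chemokines and receptors had a negative log2 fold change, with a median of -0.38. For Ccl2 it was only -0.01, and its mean normalized count was 628 in control mimic and 640 in miR-19a/19b mimic hearts. Of the 13, 5 had an unadjusted p under 0.05 and 4 were lower without overlap (2.63% and 5.3% of all tested genes). Among these were the T cell and monocyte attractant Ccl5 (-0.99), the monocyte receptor Ccr2 (-0.53), and the ligands Ccl8 (-0.49) and Cx3cl1 (-0.48). Ccl9, the most abundant, was at -0.06 (unadjusted limma p 0.724). Without miR-19a/19b mimic replicate 1 the sign turned for Ccl2 (0.41), Ccl7 (0.30), Ccl4 (0.17), Ccl12 (0.15), Ccr1 (0.14) and Ccl9 (0.12). The other genes of this list stayed negative without that heart. Of 4 interferon-induced chemokine genes, Cxcl9 was lower without overlap (-0.68, unadjusted limma p 0.00987), and Cxcl10 was at -0.58 (unadjusted limma p 0.105). Of the 8 genes listed as neutrophil chemokines and receptors, not all are particular to neutrophils. Only the scarce receptor Cxcr1 had an unadjusted p under 0.05 (-1.51, with at most 5.86 normalized counts in any heart). Pf4, the most abundant of this list, was at 0.27 and Cxcl5, the next most abundant, at -0.35. Without miR-19a/19b mimic replicate 3 these values were -0.03 and -0.73, and without miR-19a/19b mimic replicate 1 they were 0.51 and 0.24.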

How the data were processed

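The authors deposited a signal in normalized counts, that is, reads per gene after division by the library's size factor. The submitters' processing notes name STAR 2.5.1b, HTSeq 0.6.0, DESeq2 1.10.1 and the build mm9, whereas 82.7% of the 25884 genes found in GENCODE M21 have the coordinates of GRCm38, which are given here as deposited. The authors' own fold changes and p-values, and their table of selected genes, were not used. In each library 100% of values were whole multiples of 1 read (tolerance 0.01), so reads could be recovered. Groups were taken from the sample labels, and each library is 1 of 3 biological replicates per group.

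Genes with a mean of at least 1 (21126) were tested with limma 3.58.1 (R 4.3.3, trended prior) on log2(normalized count + 1), which understates the change of scarce genes, with Benjamini-Hochberg adjustment over all of them. Single values were compared with two-sided exact permutation tests over hearts. Length scaling used the gene lengths in the deposited table. Transcripts were aligned with BLAST to find copies of at least 150 bases and 95% identity. Alternatives were edgeR 4.0.16, DESeq2 1.42.0 and limma-voom on recovered reads, other scalings, filters and a pseudocount of 0.1, a replicate block, and each heart left out. The limma test and the edgeR quasi-likelihood test were checked on simulated data, and the other tests were not.

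The genes named are all 8 genes, and of each chemokine list those with an unadjusted p under 0.05 and the 2 with the highest mean, with the near copies of Ccl21a, apart from items that are not reported here. The nearest genes are the 3 with the highest Pearson r over the hearts. Overlapping genes, marker genes, near copies of Ccl19 and scarce genes were named after their values were seen. The members and lists were chosen with earlier results of these data known.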

Additional observations from a re-analysis of the deposited data

How the results depend on the processing

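Over the 8 genes, 127 values were recomputed, of which 119 kept their direction and their side of the threshold, 6 turned in sign and 2 newly passed the threshold (Ccr7 and Ackr3 without miR-19a/19b mimic replicate 3). With 1 heart left out, the log2 fold change ranged from -0.16 to 0.31 for Ccl21a, from -1.35 to 0.19 for Cxcl13 and from -0.27 to 0.14 for Cxcr4. The sign turned for Ccl21a without control mimic replicate 3 (-0.04) or miR-19a/19b mimic replicate 2 (-0.16), for Cxcl13 without control mimic replicate 1 (0.03) or 3 (0.19), and for Cxcr4 without control mimic replicate 3 (0.10) or miR-19a/19b mimic replicate 2 (0.14). Differences of ratios and of list genes with a heart left out were computed after seeing the data. Of all tested genes, limma called 0 lower and 0 higher, DESeq2 28 and 1, and fits with 1 heart left out between 0 and 154 lower and between 0 and 361 higher. Of the 8 genes, these fits called between 0 and 1 in each direction. The cause was not tested. Ccl19 could not be tested at a mean of at least 10, and DESeq2 gave it no adjusted p. Same-numbered hearts did not deviate together (correlations of -0.02, -0.17 and -0.29 over 15513 genes). Deviations were taken from the mean of only 3 hearts, so this check cannot exclude that same-numbered hearts shared a batch. The fit with a replicate block called 0 genes lower and 0 higher, with 434 lower and 207 higher at an unadjusted p under 0.05, and gave Ccr7 an unadjusted limma p of 0.0145. No scaling moved the median of all genes by over 0.1. Depth limits Ccl19, with 2 to 12 reads per heart, and Cxcl13, with 5 to 52.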

Other observations

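As a description over the 6 hearts, the genes whose log2(normalized count + 1) was most like that of each member were taken from 15501 genes with a mean of at least 10. Ccr7 was most like Etv6, a transcription factor of haematopoietic cells, with a Pearson r of 0.996, then Ppfia4 (0.992) and Ap1s3 (0.990). Cxcl12 was most like Gamt, an enzyme of creatine synthesis (0.998), Cxcr4 most like Hcfc1 (0.998), Ackr3 most like Zdhhc17 (0.998) and Ccl21a most like Habp2 (0.982). Such values were not rare, since between 14 and 67 genes had an r above 0.95 with any 1 of the 7 members compared. Ccl19 was below the mean set for this comparison.

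The summed markers of fibroblasts, macrophages, and follicular dendritic and reticular cells overlapped between groups. The summed fibroblast markers were 492039, 501655 and 609583 normalized counts in control mimic replicates 1 to 3 and 525407, 406993 and 690622 in miR-19a/19b mimic replicates 1 to 3 (exact permutation p = 1.0), and the summed macrophage markers lay between 86772 and 102992 and between 72181 and 109455 (exact permutation p = 0.7). The summed markers of follicular dendritic and reticular cells, the usual sources of CXCL13 and CCL19, lay between 77791 and 95798 and between 54502 and 85128 (exact permutation p = 0.2). Clu, which is not specific to these cells, made up between 79.0% and 87.4% of that sum, and Cr2, the marker of that list that best defines follicular dendritic cells, was also counted among the B cell markers and held at most 8.64 normalized counts.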
